A study of Mus musculus with 4 samples.

Results

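Genes that bring fatty acids into fat cells and build them into triglyceride were measured in epididymal fat, a visceral depot next to the testis. The set held 10 genes, chosen by symbol, and all 10 were found among the 18194 genes that the arrays name. They were Lpl, Gpihbp1, Cd36, Fabp4, Fabp5, Gpam, Agpat2, Lpin1, Dgat1 and Dgat2. Each gene was read from 1 probe set, a group of short probes for the same transcript, namely the one with the highest mean log2 signal over all 4 arrays.

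The mice were C57Bl/6J, placed on their diets at 9 weeks of age and kept on them for 21 weeks. Both diets were high in fat, at 60% of energy in the control diet. That diet held 0.4% calcium, and the other held 1.8% calcium together with whey protein isolate, so that calcium and whey could not be told apart. Of 10 mice per diet, fat from 2 per diet was profiled. By their labels, 2 arrays, called replicates 1 and 2, came from mice fed high calcium with whey, and 1 came from the standard high-fat diet. The fourth array carried no label that settles its diet. By the count of 2 mice per diet it would be a second standard array, but its title, on dietary calcium and dairy proteins, names neither diet. It entered no test and is called the array of open diet. Whole fat pads hold fat cells, vessels and immune cells, so fewer cells of a type and less RNA per cell cannot be told apart in these values.

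In white fat, lipoprotein lipase cuts fatty acids from circulating triglyceride at the surface of capillaries, where the anchor GPIHBP1 holds it. The fatty acids enter cells with the help of CD36 and are carried inside by fatty acid-binding proteins. They are then joined stepwise to glycerol phosphate by acyltransferases of the GPAT and AGPAT families, lipin removes the phosphate, and DGAT enzymes add the last fatty acid. Many of these genes are known targets of PPARgamma, the nuclear receptor that directs fat cell formation.

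RefSeq start sites (build GRCm38.p6) were available for 4 of the genes, Agpat2, Cd36, Gpam and Lpin1, in 5 windows. Lpl, Gpihbp1, Fabp4, Fabp5, Dgat1 and Dgat2 had no entry. The 250 bases upstream of the start are shown for Gpam and Lpin1, which varied most between the arrays, and for Agpat2, which had the most negative difference between the diets. They were read 5' to 3' on the strand of the gene, which is the minus strand in each case. Capitals mark matches, on either strand, to AGGTCA (a nuclear receptor half-site), the CCAAT box or the GC box GGGCGG. The TATA box, TATAAA, the E-box, read as CACGTG, and the DR1 element, a direct repeat of that half-site with 1 base between, which PPAR binds together with RXR, were searched as well.

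Gpam at chr19:55127239-55127488: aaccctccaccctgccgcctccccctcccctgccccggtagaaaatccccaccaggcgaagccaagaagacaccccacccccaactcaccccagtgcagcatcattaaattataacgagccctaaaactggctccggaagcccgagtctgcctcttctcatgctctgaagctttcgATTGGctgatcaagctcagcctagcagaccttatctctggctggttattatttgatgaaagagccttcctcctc

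Gpam at chr19:55099478-55099727: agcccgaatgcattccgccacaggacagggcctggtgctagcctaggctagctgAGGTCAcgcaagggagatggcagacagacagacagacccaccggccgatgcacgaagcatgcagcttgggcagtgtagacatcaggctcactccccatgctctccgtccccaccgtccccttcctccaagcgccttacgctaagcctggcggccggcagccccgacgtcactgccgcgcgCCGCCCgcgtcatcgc

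Lpin1 at chr12:16610967-16611216: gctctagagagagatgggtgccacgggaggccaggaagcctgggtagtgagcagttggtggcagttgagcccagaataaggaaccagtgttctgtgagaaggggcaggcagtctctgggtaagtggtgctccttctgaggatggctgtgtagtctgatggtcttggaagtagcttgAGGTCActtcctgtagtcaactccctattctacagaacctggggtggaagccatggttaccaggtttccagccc

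Agpat2 at chr2:26604418-26604667: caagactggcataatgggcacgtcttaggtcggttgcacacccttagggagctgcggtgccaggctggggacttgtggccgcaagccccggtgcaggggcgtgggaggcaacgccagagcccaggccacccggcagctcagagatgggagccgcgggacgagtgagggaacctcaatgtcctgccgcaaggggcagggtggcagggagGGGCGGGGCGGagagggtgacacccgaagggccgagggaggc

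AGGTCA stood at -196 to -191 from the start in the Gpam window at chr19:55099478-55099727, at -74 to -69 in that of Lpin1 and, on the opposite strand, at -228 to -223 in that of Cd36. Of all 32851 windows of this length, 14.02% held it on either strand. The other Gpam window had CCAAT on the opposite strand at -74 to -70, a motif present in 33.8% of all windows. Agpat2 had a pair of GC boxes that overlap by 1 base, at -42 to -37 and -37 to -32, and 32.7% of all windows held at least 1 GC box. The Gpam window with AGGTCA also had a GC box, on the opposite strand at -16 to -11. Cd36 had GC boxes at -109 to -104 and -93 to -88, and CCAAT at -195 to -191. The DR1 element, which contains the half-site, was found in 0.0335% of all windows. TATAAA was found in 12.4% and CACGTG in 6.02%. None of these last 3 motifs had a match in the 5 windows. These matches describe the letters of the windows, and the arrays do not measure binding.

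Every one of the 10 genes was far above background. Background was taken as the median signal of an array over its 45101 probe sets, which was 0.0963 on replicate 1, 0.0628 on replicate 2, 0.0624 with the standard diet and 0.0585 on the array of open diet, on the deposited linear scale. Readings of the 10 genes ranged from 28.6 times (Gpihbp1 on replicate 1) to 662 times (Fabp4 on replicate 2) the background of the array. All 8 measured fat cell markers, among them Adipoq, Lep, Cidec and Slc2a4, were above background on all 4 arrays.

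Replicate 1 stood apart from the other arrays in markers of other tissues. All 6 smooth muscle markers were highest there, with a summed signal of 60.6 against 8.81 on replicate 2, 9.99 with the standard diet and 7.13 on the array of open diet. All 3 measured B cell markers, each above background there, and 4 of 5 mesothelium markers were highest on it as well. The lone standard array, on which every difference rests, stood apart in brown fat markers: all 4 were highest there, 3 of them above background, with a summed signal of 0.88 against 0.43, 0.39 and 0.44 on replicate 1, replicate 2 and the array of open diet. The part of these tissues in the values below was not tested. For each of the 10 genes, the value of replicate 2 alone is given beside the mean of both replicates.

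**Figure D1:**
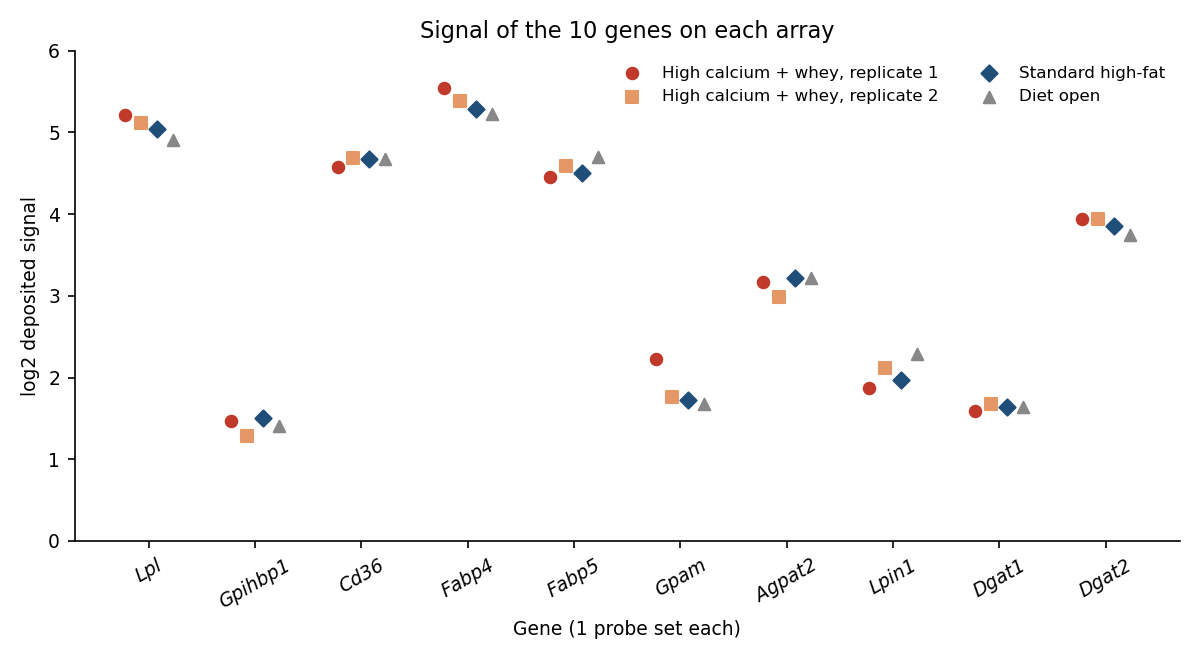
Signal of the 10 genes on each array. The vertical axis is the log2 of the deposited signal, each point is 1 array, and colours and shapes mark the 2 high-calcium whey arrays, the standard array and the array of open diet. The 4 points of a gene lie close together, with the widest spread, 0.55 log2 units, in Gpam.

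None of the 10 genes passed the test between the diets. limma with its constant prior, fitted over all 18194 genes on log2 signals of the 2 high-calcium arrays and the standard array, called 0% of genes at a Benjamini-Hochberg adjusted p under 0.05, and each of the 10 had an adjusted p of 0.9999. Their unadjusted p ranged from 0.566 to 0.970, with 0 of 10 under 0.05, next to 4.94% of all genes. With a trend of variance on signal and robust estimation, limma called 0.033% of all genes and 0 of the 10, whose smallest unadjusted p was 0.137 (2.86% of all genes were under 0.05). The differences, high calcium minus standard, ran from -0.14 to 0.27 on the log2 scale with a median of 0.028. The median over all genes was 0.079. Gpam, Fabp4, Lpl and Dgat2 were higher on both high-calcium arrays, and Agpat2 and Gpihbp1 were lower on both. These 4 and 2 of 10 genes stood beside 38.6% and 23.9% of all genes, so the shares were near those of all genes. Both high-calcium arrays differed by at least 1.5-fold in 0 of the 10 genes, next to 12.7% of all genes higher and 4.49% lower by that much.

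Precision rested on 2 arrays against 1, with the lone standard array assumed to vary like the others. The 95% intervals of the constant prior reached from -1.39 (Agpat2) to 1.79 (Gpam), so that fold differences between 0.383 and 3.45 lay within the interval of at least 1 gene. With the trend and robust estimation, which gives bright genes a smaller spread, the interval was from -0.12 to 0.35 for Lpl, from -0.060 to 0.40 for Fabp4, from -0.29 to 0.21 for Cd36 and from -0.20 to 0.36 for Dgat2. The widest of these narrower intervals was that of Gpam, from -0.18 to 0.72.

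**Figure D2:**
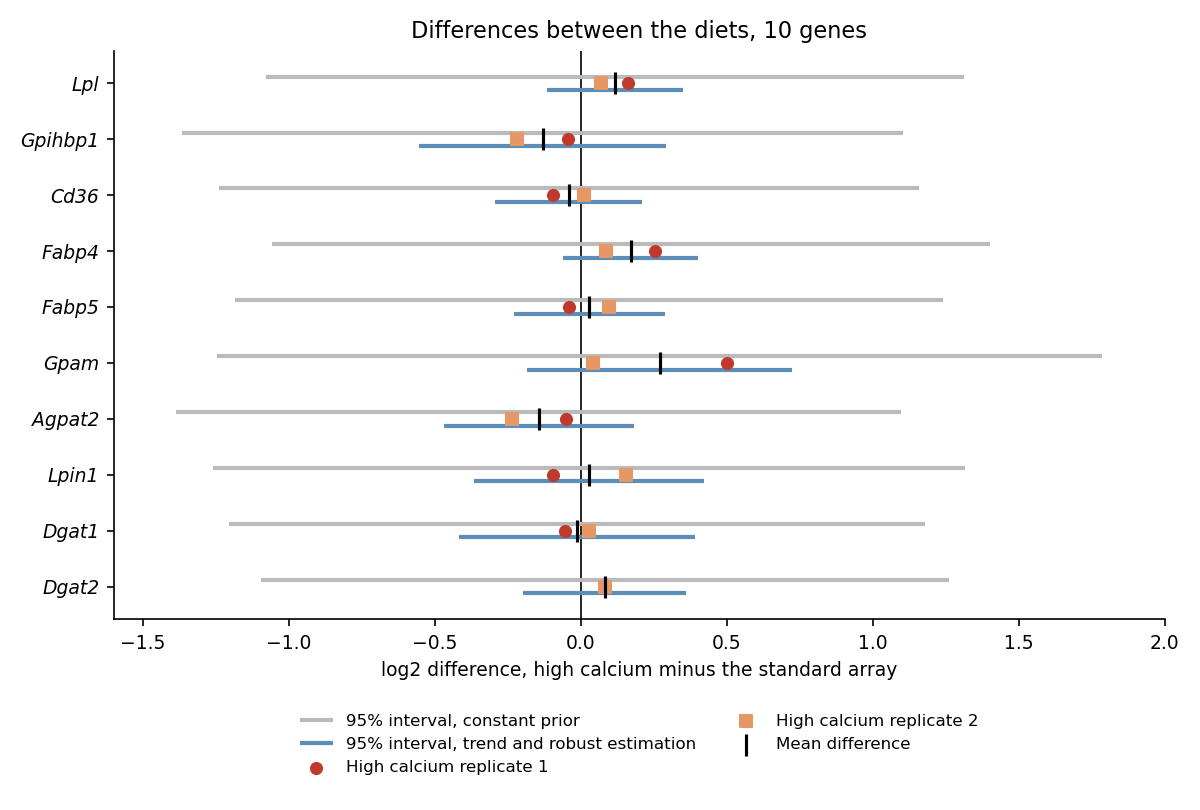
Log2 difference from the standard array for each gene. Points are the 2 high-calcium arrays (1 point hides the other for Dgat2), the black bar is their mean, and grey and blue lines are the 95% intervals of limma with the constant prior and with the trend and robust estimation. All intervals of both kinds include 0.

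Spread between the arrays was small for the set, and like that of other bright genes. The range over the 4 arrays had a median of 0.24 log2 units and was under 0.5 for 9 of 10 genes, against a median of 0.84 and 33.1% of all genes. Among the 1339 genes whose mean signal was at least that of the dimmest of the 10, the median range was 0.25 and 84.9% were under 0.5. For 7 of 10 genes replicates 1 and 2 lay farther apart than the diet means did, which was so for 59.8% of all genes.

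Lpl encodes lipoprotein lipase, which releases fatty acids from triglyceride-rich lipoproteins. Its signal was 37.0 on replicate 1, 34.6 on replicate 2, 33.0 with the standard diet and 29.9 on the array of open diet. Both high-calcium arrays were above the standard array, and the array of open diet was the lowest. The log2 signal was 5.16 ± 0.066 (SD, n = 2) against 5.05, a difference of 0.12 (SE 0.32) or 1.08-fold, with 0.16 from replicate 1 and 0.069 from replicate 2. A second probe set gave 0.0089 (SE 0.39), with the high-calcium arrays on either side of the standard one.

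Gpihbp1, the capillary protein that carries and anchors lipoprotein lipase, is made by endothelial cells. Its signal was 2.76 and 2.44 on the high-calcium replicates, 2.84 on the standard array and 2.66 on the array of open diet. The standard array was the highest of the 4. The log2 difference was -0.13 (SE 0.33), from -0.043 in replicate 1 and -0.22 in replicate 2, and there was no second probe set. Endothelial markers lay on the same side: of 10 measured, all above background, 8 were lower on both high-calcium arrays and 8 were highest on the standard array. Their summed signal was 7.45 and 5.87 on the high-calcium replicates, 10.1 on the standard array and 6.04 on the array of open diet. The part of endothelial content in the Gpihbp1 value was not tested.

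Cd36 encodes a membrane protein that takes up long-chain fatty acids in fat cells, capillaries and macrophages. Its signal was 23.9 and 25.7 on the high-calcium replicates and 25.5 on both the standard array and the array of open diet. Replicate 1 alone was below the other arrays, and the diets overlapped. The log2 difference was -0.041 (SE 0.32), from -0.095 in replicate 1 and 0.012 in replicate 2. The dimmer probe sets repeated that order more widely, at -0.26 and 0.051 for one and -0.24 and 0.044 for the other.

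Fabp4 encodes the main fatty acid-binding protein of fat cells, also found in macrophages and capillary endothelium. Its brightest probe set had signals of 46.7 and 41.6 on the high-calcium replicates, 39.2 on the standard array and 37.4 on the array of open diet. The high-calcium arrays were above both others. The log2 difference was 0.17 (SE 0.33), or 1.13-fold, from 0.25 in replicate 1 and 0.087 in replicate 2. After quantile normalization the difference was 0, because this probe set ranked number 2 in signal on all 4 arrays.

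The other 3 probe sets of Fabp4 lay on the opposite side. Probe set 1451263_a_at had log2 signals of 3.51 and 3.64 on the high-calcium replicates, 4.19 on the standard array and 4.09 on the array of open diet. Both high-calcium arrays were thus lower by more than 0.5, a threshold set after the values had been seen, as were 1.67% of 16916 probe sets above background. The difference was -0.62 (SE 0.39) and did not pass limma over the 34958 probe sets with 1 gene symbol (adjusted p = 0.9999), a fit that called 0% of them. No probe set of the 10 genes (0 of 21) was at least 1.5-fold lower on both arrays, next to 5.02% of all 34958. On the higher side, a dimmer Gpam probe set, described below, did differ by at least 1.5-fold on both. Probe sets 1424155_at and 1425809_at differed by -0.36 (SE 0.52) and -0.53 (SE 0.60), mostly through replicate 2, at -0.68 and -0.94, against -0.049 and -0.12 on replicate 1.

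Within each array, the brightest Fabp4 probe set exceeded 1451263_a_at by 2.04 and 1.74 log2 units on the high-calcium replicates, by 1.10 on the standard array and by 1.13 on the array of open diet. The spread of the diet difference over the 4 Fabp4 probe sets was 0.79. Of 4177 genes with 2 or more probe sets above background, 9.53% had a spread as large, and 20.9% had 1 probe set higher and another lower on both high-calcium arrays. The median spread was 0.28. Spread was the largest minus the smallest difference of a gene, which can only widen as probe sets are added. These genes were not matched to Fabp4 in their number of probe sets. The other genes of the set with more than 1 probe set above background had spreads from 0.051 (Lpin1) to 0.38 (Gpam). The direction for Fabp4 therefore depended on which probe set was read.

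**Figure D3:**
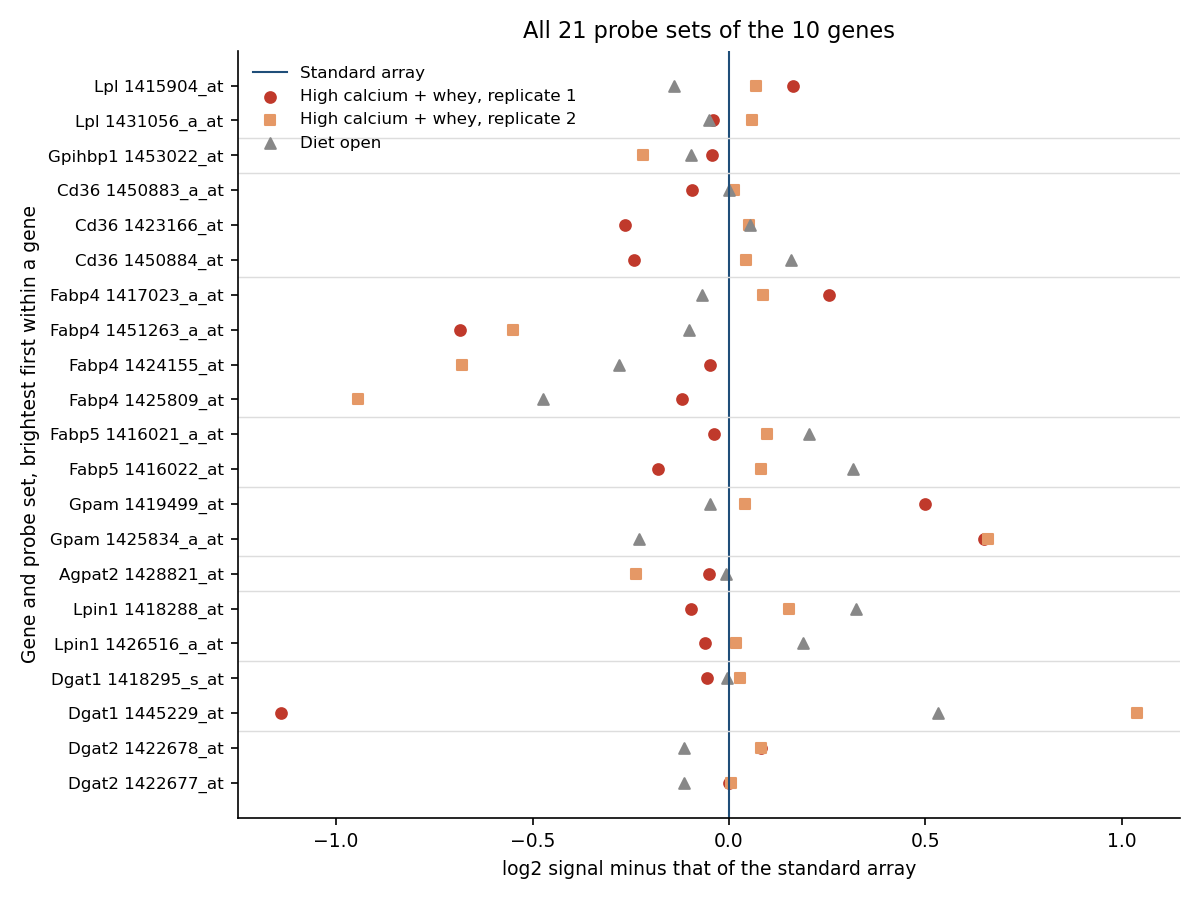
Log2 signal of all 21 probe sets of the 10 genes, minus that of the standard array (vertical line), for the 2 high-calcium arrays and the array of open diet. The brightest Fabp4 probe set lies to the right of the line on both high-calcium arrays and the other 3 lie to its left. The second Dgat1 probe set, above background on 2 of 4 arrays, scatters most.

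Fabp5, a second fatty acid-binding protein that is abundant in macrophages and skin, did not separate the diets. Its signal was 22.0 and 24.2 on the high-calcium replicates, 22.6 on the standard array and 26.04 on the array of open diet. The standard array lay between the high-calcium arrays. The log2 difference was 0.028 (SE 0.33), from -0.039 in replicate 1 and 0.096 in replicate 2, and the second probe set gave -0.050 (SE 0.41). Of 10 measured macrophage markers, all above background, 9 were lowest on replicate 1 and 7 were highest on the array of open diet. Their summed signal was 47.2 and 76.5 on the high-calcium replicates, 72.0 on the standard array and 76.4 on the array of open diet. The part of macrophage content in the values of Fabp5, Lpin1 and Cd36 was not tested.

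Gpam encodes the mitochondrial glycerol-3-phosphate acyltransferase, which starts triglyceride synthesis. It had the largest difference of the set and the widest range. Its signal was 4.66 on replicate 1, 3.40 on replicate 2, 3.30 with the standard diet and 3.19 on the array of open diet, so that replicate 1 stood alone and the other 3 arrays were close together. The log2 signal was 1.99 ± 0.32 (SD, n = 2) against 1.72, a difference of 0.27 (SE 0.41). Replicate 1 made most of it, at 0.50, and without that array the difference was 0.042. Replicate 1 is also the array with high smooth muscle markers, and their part in the Gpam value was not tested.

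A dimmer Gpam probe set, 1425834_a_at, had log2 signals of -2.53 and -2.52 on the high-calcium replicates, -3.18 on the standard array and -3.41 on the array of open diet. The mean difference was 0.65 (SE 0.39), or 1.57-fold (adjusted p = 0.9999 over all probe sets with limma), with both high-calcium arrays higher. This probe set was dim, and over the background of its own array its signal was 1.79 times on replicate 1 and 1.76 times on the standard array, against 2.77 times on replicate 2 and 1.61 times on the array of open diet. Relative to background, replicate 1 was thus level with the standard array. By the same measure the brightest Gpam probe set was lowest on replicate 1, at 48.5 times. It was at 54.1 times on replicate 2, 52.9 times on the standard array and 54.5 times on the array of open diet. The other genes of the set were also lower on replicate 1 than on the standard array by this measure. Replicate 1 had the highest background, at 0.0963. A rise of at least 0.5 on both arrays was seen for 3.57% of probe sets above background.

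Agpat2 encodes the acyltransferase that turns lysophosphatidic acid into phosphatidic acid, and its loss in people causes a lack of body fat. Its signal was 9.01 and 7.92 on the high-calcium replicates, 9.33 on the standard array and 9.28 on the array of open diet. Both high-calcium arrays were below the other arrays. The log2 difference was -0.14 (SE 0.33), or 0.905-fold, from -0.051 in replicate 1 and -0.24 in replicate 2, and no other probe set was present.

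Lpin1 encodes lipin 1, the phosphatidate phosphatase that forms diacylglycerol. Its signal was 3.66 and 4.35 on the high-calcium replicates, 3.91 on the standard array and 4.90 on the array of open diet. The standard array lay between the high-calcium arrays and the array of open diet was the highest. The log2 difference was 0.028 (SE 0.35), from -0.097 in replicate 1 and 0.15 in replicate 2. The second probe set kept the order of the arrays and gave -0.022 (SE 0.39).

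Dgat1 and Dgat2 encode unrelated enzymes that both add the last fatty acid to diacylglycerol. Dgat1 had signals of 3.01 and 3.19 on the high-calcium replicates, 3.13 on the standard array and 3.12 on the array of open diet, the smallest range of the set at 0.084 log2 units. Its log2 difference was -0.013 (SE 0.32), from -0.055 in replicate 1 and 0.028 in replicate 2. Dgat2 had signals of 15.3 on both high-calcium replicates, 14.5 on the standard array and 13.4 on the array of open diet. The high-calcium arrays were level with each other and above both others, with a difference of 0.082 (SE 0.32), from 0.081 and 0.082 in the replicates. The second Dgat2 probe set differed by 0.0019 (SE 0.39). For Dgat1 the other probe set was above background on 2 of 4 arrays and gave no usable direction, at -1.14 on replicate 1 and 1.04 on replicate 2.

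The genes higher on both high-calcium arrays had a similar order of the arrays in their brightest probe sets. Lpl, Fabp4 and Gpam were highest on replicate 1, then on replicate 2, then on the standard array, and lowest on the array of open diet, and Dgat2 differed from that order only in its tie between the high-calcium arrays. The summed signal of the 8 fat cell markers had the same order, at 112, 105, 103 and 96.7, but only through Retn: without it the sums were 87.3, 88.2, 84.2 and 80.1, with replicate 2 highest. Of the 8 markers, 1, Slc2a4, had that order by itself, and 4 were higher on both high-calcium arrays. The bright end of the arrays had the order of Lpl, with 99.9th percentiles of 28.5, 27.2, 25.95 and 25.01, while the 99th percentiles, at 10.5, 10.5, 10.4 and 10.7, did not. Choosing genes higher on both high-calcium arrays fixed part of the order, and the share of all genes with it was not counted. The dimmer Gpam probe set had it apart from a near tie between the high-calcium arrays. The second Lpl probe set did not, at log2 signals of 4.18, 4.28, 4.22 and 4.17. The standard array was level with both replicates on the second Dgat2 probe set and highest on the other Fabp4 probe sets. Centring each array on the mean of the fat cell markers left 0 of 10 genes higher and 7 lower on both high-calcium arrays. The median difference was then -0.13 for the set and -0.074 for all genes. This centring moved the difference of every gene by -0.15. The shares of all genes higher or lower on both arrays were not counted in it, so the 7 have no share beside them. In that setting Lpl was at -0.037, Dgat2 at -0.072, Fabp4 at 0.017 and Gpam at 0.12. The part of array scale in these values was not tested beyond the settings given.

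**Figure D4:**
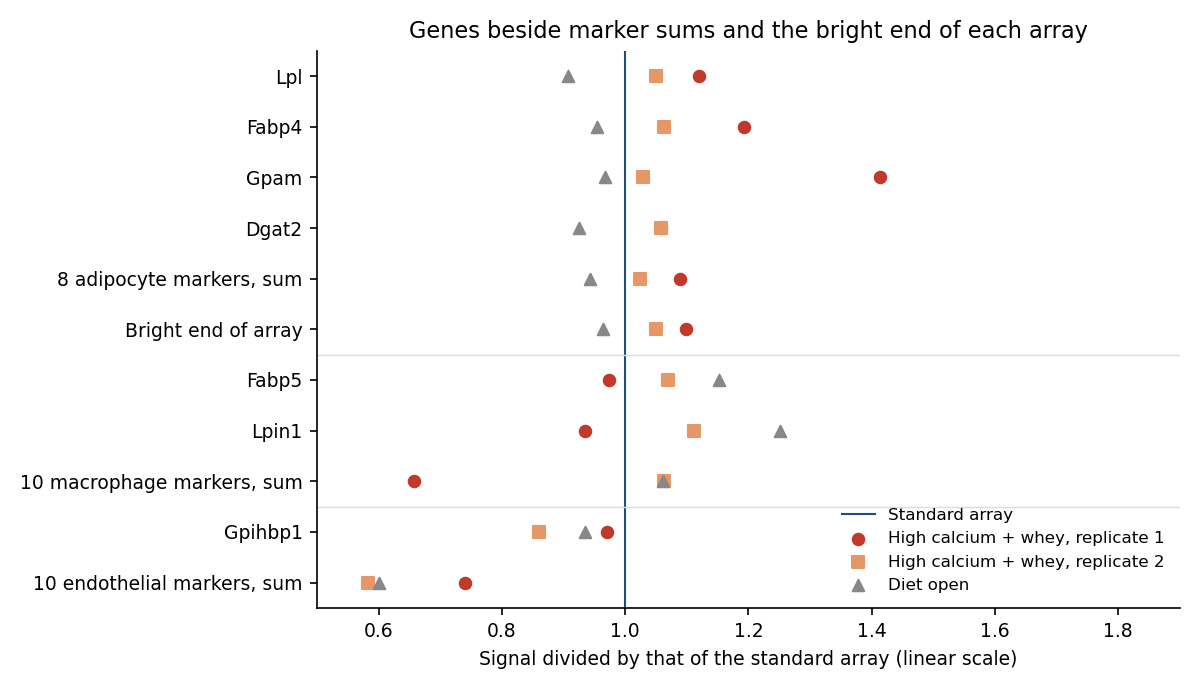
Signal of 7 genes, of 3 marker sums and of each array's 99.9th percentile (bright end), divided by the value on the standard array (vertical line, linear scale). Replicate 1 is at 1.12 for Lpl, 1.19 for Fabp4 and 1.41 for Gpam, beside 1.09 for the fat cell markers and 1.10 for the bright end; Fabp5 and Lpin1 are above 1 on the array of open diet, and Gpihbp1 and the endothelial sum are below 1 on all 3 arrays.

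By likeness of profile over the 4 arrays, measured as the distance between mean-centred log2 signals among 10463 genes above background, Gpam lay nearest to Sgf29 (0.032), Ap1b1 (0.034) and Tmem241 (0.039). The nearest genes to Lpin1 were Tram2 (0.031), Lasp1 (0.034) and Tirap (0.035). Those nearest to Fabp4 were Zfx (0.017), Gfus (0.022) and Ddost (0.022). These distances describe 4 points per gene.

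The wider pathway gave no call either. Of 59 further genes of lipolysis at the capillary, uptake, activation, synthesis and control, 54 were measured and 46 were above background on all 4 arrays. limma with the constant prior called 0 of 54, with 0 at an unadjusted p under 0.05. The trend and robust estimation also called 0, with 2, Vldlr and Mogat2, at an unadjusted p under 0.05, which is 3.70% of the 54 next to 2.86% of all genes. Of the 46, 15 were higher and 16 lower on both high-calcium arrays, next to 35.4% and 27.1% of all genes above background. Their median difference was -0.010, against 0.030 for those genes.

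Among regulators of lipoprotein lipase and of its substrates, 2 of 8 genes above background were higher on both arrays and 4 were lower. Vldlr, a receptor that binds triglyceride-rich lipoproteins, had log2 signals of 1.36 and 1.18 on the high-calcium replicates, 1.89 on the standard array and 1.72 on the array of open diet. The high-calcium arrays were below both others, with a difference of -0.62 (SE 0.33) and adjusted p of 0.9999 with limma's constant prior and 0.9998 with the trend. Apoc2, the apolipoprotein that activates the lipase, differed by -0.40 (SE 0.32; -0.41 in replicate 2) and Angptl8, an inhibitor partner, by -0.45 (SE 0.55), the latter almost wholly on replicate 2 (-0.85 against -0.052). Angptl4, the inhibitor made by fat cells, was at 0.24, from 0.15 in replicate 1 and 0.33 in replicate 2. Apoc1 split the high-calcium arrays, at 0.13 and -0.72.

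In uptake, activation and binding, Acsl3, an acyl-CoA synthetase, differed by -0.42 (SE 0.40), from -0.21 in replicate 1 and -0.63 in replicate 2. Its relative Acsl4 was at 0.94 on replicate 1 and -0.11 on replicate 2. Fabp3, the fatty acid-binding protein of heart and muscle, was at 1.13 on replicate 1 and 0.20 on replicate 2, a mean of 0.67 (SE 0.61). Of 5 measured skeletal muscle markers, 1, Acta1, was above background on all 4 arrays, at 1.25 on replicate 1, 0.53 on replicate 2, 0.54 with the standard diet and 0.50 on the array of open diet. The summed signal, mostly Acta1 and Ckm, was 1.84 on replicate 1 against 0.65, 0.64 and 0.56 on the others. The part of muscle RNA in the Fabp3 value was not tested.

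Among enzymes of synthesis, relatives of Agpat2 lay on either side. Agpat1 was higher, at 0.66 (SE 0.44), and Agpat4 lower, at -0.65 (SE 0.44), each with replicate 1 farther from the standard array (0.93 and -0.92) than replicate 2 (0.40 and -0.38). Lpin2, a relative of lipin 1, differed by -0.41 (SE 0.36), from -0.55 in replicate 1 and -0.26 in replicate 2. Plpp2, a lipid phosphate phosphatase, was at 1.08 on replicate 1 and 0.0093 on replicate 2. Mogat2, which acylates monoacylglycerol, had log2 signals of -0.18 and -0.31 on the high-calcium replicates, -0.96 on the standard array and -0.49 on the array of open diet. Its difference of 0.72 (SE 0.33) was the largest among the 46 genes, and both high-calcium arrays were above the other arrays. The 5 regulators of expression ranged from -0.30 (Ppargc1a) to 0.28 (Mlxipl). Ppargc1a was at -0.041 in replicate 1 and -0.55 in replicate 2, and Mlxipl at 0.25 and 0.31.

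**Figure D5:**
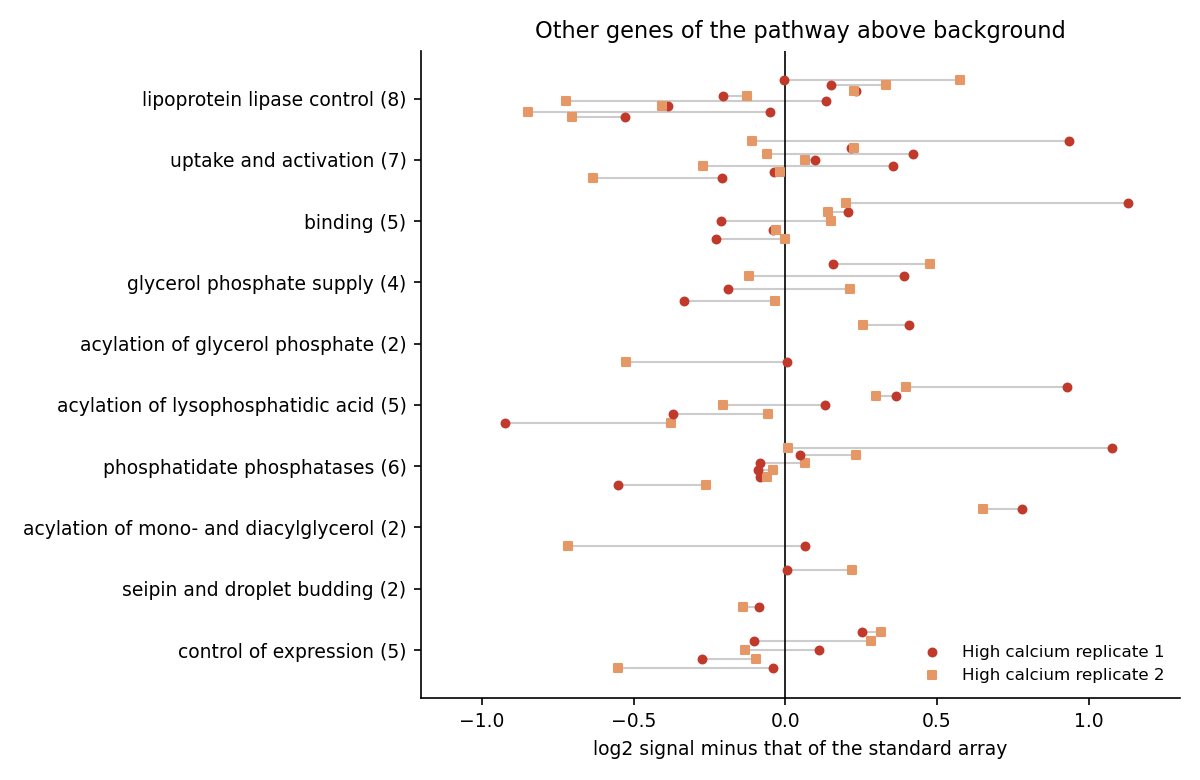
Log2 signal of the 46 other pathway genes above background, minus that of the standard array, by role, with the number of genes in parentheses. A line joins the 2 high-calcium arrays of a gene; long lines, such as those of Fabp3 and Plpp2, mark genes on which these arrays differed.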

How the data were processed

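The deposited values were intensities, 1 linear signal per probe set and array, scaled by the authors in a way not given in the sources used here; the submitters' processing notes name RMA without a version. Signals were log2 transformed with no added constant. Gene names came from the array's platform annotation. Of 45101 probe sets, 34958 carried 1 symbol, 932 several and 9211 no symbol, and 34754 matched a current gene record. The diets were compared in limma 3.58.1 (lmFit, eBayes; R 4.3.3) by a two-sided test at an adjusted p under 0.05, with 1 residual degree of freedom and 2.38 in all. The procedure was tested on simulated data.

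The 10 genes, the other gene lists and the tests were chosen with earlier results of these data known. Other pathway genes named were, of those above background, the 10 with the largest difference with both high-calcium arrays on 1 side and the 5 with the largest gap between them; likeness used the 3 widest-ranging genes and 3 neighbours each. Angptl4, Ppargc1a and Mlxipl were added after their values were seen. Of the lists, 5 of 59 pathway genes and 4 of 66 markers were not matched and are not analysed here; 8 of 10 fat cell markers were measured. Alternatives were quantile normalization, 3 kinds of centring, other choices of probe set, a filter on dim genes, a variance trend with robust estimation, and dropping each of the high-calcium arrays. Plots used Python 3.11.15 and matplotlib 3.10.9.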

Additional observations from a re-analysis of the deposited data

Results flagged for a closer look

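The array of open diet enters no comparison, and on it 2 of the 10 genes were above all 3 labelled arrays, and above the standard array by more than the gap between the high-calcium arrays. This array was above the other 3 for 15.8% of all genes and for 35.3% of genes as bright as the set. These shares count only the position above the other 3, and the share that also exceeded the gap was not counted. By position alone, 2 of 10 does not set these genes apart. On this array 4 of the 10 genes were lowest, next to 30.04% of all genes and 16.36% of genes as bright as the set. Lpin1 was higher than on the standard array by 0.32 log2 units there (0.17 above replicate 2), and by 0.19 with its second probe set. Fabp5 was higher by 0.20 (0.11 above replicate 2), and by 0.31 with its second probe set. On the same array 9 of 10 macrophage markers were above their level on the standard array, with a median of 0.18. The share of all genes above their level on the standard array was not counted, so the 9 have no share beside them. Its diet is not settled by the labels, so these are values of 1 array.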

How the results depend on the processing

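No gene of the set or of the wider pathway was called under any alternative that gave a test, and in all genes the count moved from 0 to 6 with a variance trend and robust estimation and to 96 with arrays centred on the median of all probe sets. That centring lowered the median difference of all genes by a shift of -0.32, to -0.24, and the set had a median of -0.29 there. Of 121 values of the 10 genes under alternatives, 38 equal the reported one, since those settings leave the difference as it is (variance trend, filter, same probe set). Of the other 83, 55 kept their direction, 1 was 0 (Fabp4 after quantile normalization) and 27 reversed; Gpihbp1 and Agpat2, with 1 probe set each, had no reversal. The reversals with median centring were Lpl (-0.20), Fabp4 (-0.15), Fabp5 (-0.29), Gpam (-0.047), Lpin1 (-0.29) and Dgat2 (-0.24). Centring on the fat cell markers turned Lpl (-0.037), Fabp5 (-0.12), Lpin1 (-0.13) and Dgat2 (-0.072), and centring on probe sets above background turned Fabp5 (-0.0078) and Lpin1 (-0.0080). Quantile normalization turned Fabp5 (-0.040) and Dgat1 (0.017). The mean of all probe sets turned Fabp4 (-0.34) and Fabp5 (-0.011), and dropping probe sets whose suffix marks shared transcripts turned Fabp4 (-0.36) and Fabp5 (-0.050). Single probe sets that reversed were 1424155_at (-0.36), 1425809_at (-0.53) and 1451263_a_at (-0.62) of Fabp4, 1416022_at (-0.050) of Fabp5 and 1426516_a_at (-0.022) of Lpin1. Leaving out either high-calcium array gave ranges that cross 0 for Cd36 (-0.095 to 0.012), Fabp5 (-0.039 to 0.096), Lpin1 (-0.097 to 0.15) and Dgat1 (-0.055 to 0.028); 1 array against 1 leaves no residual degree of freedom, so these are values with no test and calls could not be counted. Apart from the constructions just named, the cause was not tested. No paired analysis was made, because the labels pair no mice between the diets. Replicate numbers count arrays within the high-calcium diet, and the standard diet has 1 labelled array. All 10 genes were above background on all 4 arrays; the number of arrays and the assumed spread both enter the intervals.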

Other observations

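Slc27a2, a fatty acid transport protein and very-long-chain acyl-CoA synthetase best known from liver and kidney, was singled out after its values were seen. Its log2 signal was -1.74 on replicate 1 of the high-calcium diet and -1.96 on the array of the standard diet, above background on both, and -7.74 on replicate 2 and -6.23 on the array of open diet, below background on both. The summed signal of the 5 measured epididymis and duct markers was 10.01 on replicate 1, nearly all of it Defb42 (9.55), and 1.70 on the standard array, mostly Adgrg2 (1.53), against 0.22 on replicate 2 and 0.26 on the array of open diet, and 1 of these markers, Adgrg2, was above background on all 4 arrays. The part of duct tissue in the Slc27a2 value was not tested.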
